A study of Mus musculus with 3 samples.

Results

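Growth factor receptors of the FGF, HGF, EGF and PDGF families were followed in 3 edited myoblast lines, numbered 66, 67 and 72. The 10 genes were chosen by name as receptors of these families, with no threshold on their levels, from 35562 genes: the FGF receptors Fgfr1, Fgfr2, Fgfr3, Fgfr4 and Fgfrl1, the HGF receptor Met, the EGF and neuregulin receptors Egfr, Erbb2 and Erbb3, and the PDGF receptor Pdgfrb. All 10 were listed in every library, and 9 had a mean of 1 TPM or more, where TPM counts transcripts per 1000000 of a library after correction for their length.

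Receptor tyrosine kinases carry a ligand-binding part outside the cell and a kinase inside it. Binding of the ligand brings receptor molecules together, the kinases phosphorylate each other, and adaptor proteins then link the receptor to the Ras, PI3 kinase and phospholipase C pathways. In muscle, satellite cells rest beside the fibre until injury. FGF and HGF are well-known signals for their activation and proliferation, and both hold back differentiation of cultured myoblasts, the dividing cells that satellite cells give rise to.

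The lines carried the Dmd-mdx mutation, a premature stop in dystrophin, corrected by CRISPR/Cas9 editing, together with the Pax7-nGFP reporter, which marks cells that use the satellite cell gene Pax7. They came from satellite cells of mouse chimeras, which had been made with edited iPSCs of this genotype, and the study purified the myoblasts by flow cytometry before bulk RNA-seq. The study checked the edit in 1 iPSC clone and in the myoblast lines it examined, and the labels do not say from which clone each line came. The 3 lines had 1 library each and form 1 condition (n = 3). The labels do not give the age of the chimera, its host genotype, its tamoxifen treatment, or whether the lines came from separate animals. The SD values and p-values given here therefore measure only the spread between these 3 samples. The section of the paper that reports such myoblasts used Pax7-CreERT2 and Rosa26-lsl-DTA host blastocysts, in which tamoxifen ablates host satellite cells. Muscles there were taken weeks after birth, from chimeras with and without tamoxifen. Unedited cells and other cell types were not analysed here. The libraries of lines 66, 67 and 72 held 73274315, 66972426 and 70272367 estimated counts, of which the 10 receptor genes took 52204, 40358 and 63407. All 10 markers of myoblasts, Pax7, Myf5 and Myod1 among them, were at or above 10 TPM in every line, with sums of 2704 to 2881 TPM. Of all detected genes, 47.1% were at or above 1 TPM in every line and 31.5% at or above 10, the shares against which this and each later count of a list can be read. Dmd, the edited gene, was at 1.97, 4.61 and 3.66 TPM, which does not check the edit, since the files hold no values per exon. In bulk RNA, fewer cells that use a gene and less RNA per cell cannot be told apart.

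The ligand preference of Fgfr1, Fgfr2 and Fgfr3 depends on which of a pair of exons encodes the end of the third immunoglobulin-like domain. The upstream exon gives the IIIb form, known from epithelia, and the downstream exon the IIIc form, known from mesenchymal cells. Fgfr4 and Fgfrl1 have no such choice. Of the 31-base words of each of these alternative exons, 100% occurred in no other gene of the files.

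Met and Fgfr1 were the receptors with the highest levels in each of the 3 lines, and Pdgfrb the one with the lowest. Summed TPM of the 10 genes were 242, 207 and 306 in lines 66, 67 and 72. Met and Fgfr1 together held 59.6%, 60.7% and 60.1% of these sums, so this share moved less than the sum itself. Within it, Met rose from 31.2% in line 66 to 33.1% in line 67 and 36.1% in line 72, while the Fgfr1 part fell. TPM is corrected for transcript length, which allows levels of different genes to be compared.

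Met, the receptor for hepatocyte growth factor (HGF), lies on chromosome 6 at 17463800 to 17573980 (+ strand). It measured 75.7, 68.4 and 111 TPM in lines 66, 67 and 72 (84.9 ± 22.5, SD, n = 3), higher than 92.4% of detected genes. Line 72 stood above the other lines, by 1.62-fold over the lowest. In each line, most of the Met level was assigned to 1 coding transcript, Met-203 (83.7% ± 1.07 of Met TPM, SD, n = 3).

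Fgfr1, the receptor of FGF2 and many other FGFs, lies on chromosome 8 at 25513654 to 25575718 (+ strand). It measured 68.7, 57.1 and 73.1 TPM in lines 66, 67 and 72 (66.3 ± 8.28, SD, n = 3), a range of 1.28-fold. Fgfr4, which myogenic cells are known to use, lies on chromosome 13 at 55152640 to 55168759 (+ strand). It measured 22.8 TPM in line 66, 28.5 in line 67 and 42.6 in line 72 (31.3 ± 10.2, SD, n = 3), a range of 1.87-fold. Its order across the lines was that of Myog, a transcription factor of differentiating muscle, at 168, 222 and 310 TPM, and of the summed differentiation markers, at 444, 597 and 779 TPM. Erbb3 and Pdgfrb had the same order, and by TPM 44.2% of all genes whose mean reached 1 TPM were lowest in line 66 and 44.4% highest in line 72. The part of differentiation in these ranges was not tested.

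Because Fgfr4 varied more than Fgfr1, the balance of FGF receptors differed by line. Among the summed TPM of Fgfr1 to Fgfr4, Fgfr1 held 71.6%, 64.3% and 60.8% in lines 66, 67 and 72, and Fgfr4 held 23.8%, 32.0% and 35.4%. The ratio of Fgfr1 to Fgfr4 was 3.01, 2.01 and 1.72 in these lines.

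Fgfr2 and Fgfr3 made up the small remainder. Fgfr2, on chromosome 7 at 130162451 to 133123350 (- strand), measured 3.01, 2.09 and 3.18 TPM (2.76 ± 0.586, SD, n = 3), between 22.8 and 27.3 times less than Fgfr1 in the same line. Fgfr3, on chromosome 5 at 33721674 to 33737068 (+ strand), measured 1.41, 1.20 and 1.42 TPM (1.34 ± 0.123, SD, n = 3), from 173 to 181 estimated counts a line. Of the 31-base words of Fgfr3, 85.1% occurred in no other listed gene, the lowest share among the receptors, so some of its reads could also be assigned to a gene that shares sequence with it, G630022F23Rik.

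Fgfrl1 encodes a receptor-like protein that binds FGF and heparin but lacks a kinase. It lies on chromosome 5 at 108692382 to 108706924 (+ strand) and measured 23.6, 20.1 and 25.0 TPM (22.9 ± 2.49, SD, n = 3). Its level was thus near that of Fgfr4, and it was above Fgfr4 in line 66 and below it in lines 67 and 72.

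Egfr had the largest range between lines of the 9 receptors whose mean reached 1 TPM. This receptor of EGF, TGF-alpha, amphiregulin and HB-EGF lies on chromosome 11 at 16752203 to 16918158 (+ strand). It measured 25.4, 9.24 and 27.9 TPM in lines 66, 67 and 72 (20.9 ± 10.1, SD, n = 3). Line 67 stood alone below the others, with a range of 3.02-fold over all 3 lines and 1.10-fold without line 67.

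Erbb2, the family member with no known ligand of its own, lies on the same chromosome at 98412470 to 98437716 (+ strand). It measured 15.4, 13.1 and 12.3 TPM (13.6 ± 1.61, SD, n = 3), with line 66 highest. Erbb3, which binds neuregulins but has little kinase activity and signals as a partner of Erbb2, lies on chromosome 10 at 128567523 to 128589652 (- strand). Its levels were 6.05 TPM in line 66, 6.61 in line 67 and 9.59 in line 72 (7.42 ± 1.90, SD, n = 3). Erbb2 exceeded Erbb3 by 2.55, 1.99 and 1.28 times in lines 66, 67 and 72. The fourth family member, the neuregulin receptor Erbb4, was at 0.03, 0.01 and 0.02 TPM.

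Pdgfrb, the receptor of PDGF-B and PDGF-D that is known from pericytes and fibroblasts, lies on chromosome 18 at 61045150 to 61085061 (+ strand). It measured 0.12, 0.20 and 0.24 TPM (0.189 ± 0.061, SD, n = 3), or 36, 56 and 68 estimated counts. These counts were above the 3 that a count of 0 allows, and 37.5% of detected genes had lower means. The related gene Pdgfra, a receptor known from fibro-adipogenic cells, was at 0.45, 0.38 and 0.39 TPM. Among 7 markers of pericytes and vascular smooth muscle, 4 were at or above 1 TPM in every line (beside 47.1% of all detected genes). Their sums of 452 to 771 TPM came mostly from Rgs5, at 356, 137 and 172 TPM in lines 66, 67 and 72, and Acta2, at 209, 292 and 581 TPM. Mcam was at 19.4, 16.2 and 14.8 TPM, Abcc9 at 1.12, 1.26 and 1.68, and Cspg4 at 0.81, 5.24 and 1.33, while Kcnj8 and Myh11 were at or below 0.01 and 0.06 TPM. Of 6 markers of fibro-adipogenic cells, 1 reached this level, Ly6a, at 2.97, 3.31 and 3.26 TPM, out of sums of 3.78 to 3.87 TPM, and Lum and Dpt were listed at 0. The part of other cell types in the Pdgfrb level was not tested.

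**Figure D1:**
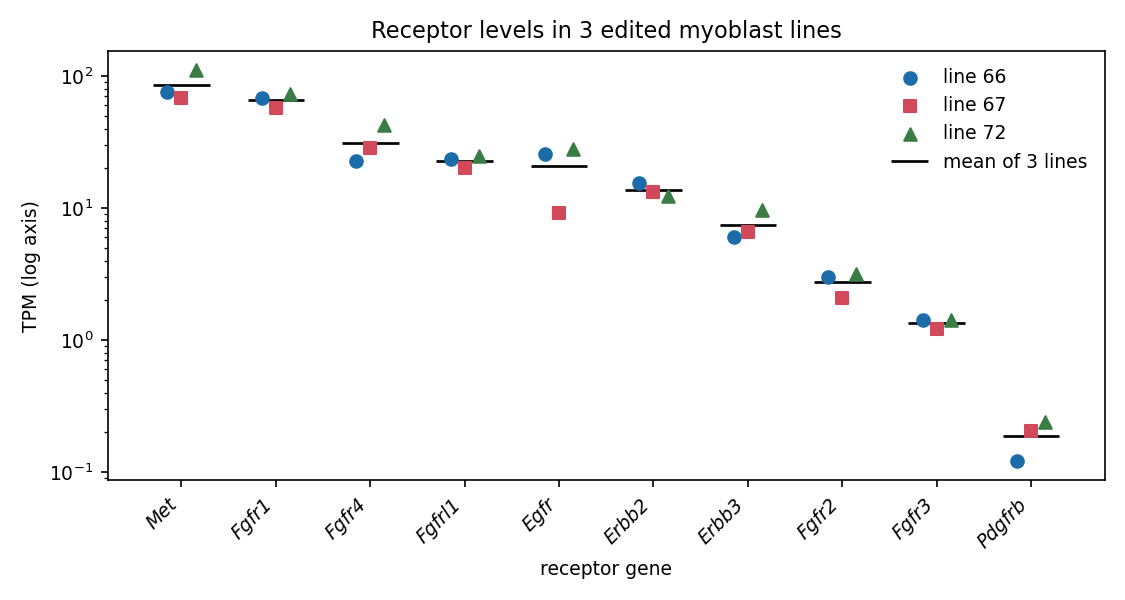
Level of each receptor gene in TPM (log axis), with 1 point per myoblast line and a bar at the mean of 3 lines. Met and Fgfr1 lie between 57.1 and 111 TPM, Pdgfrb lies below 0.25 TPM, and the Egfr point of line 67, at 9.24 TPM, lies apart from the other Egfr points.

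The order of mean levels was Met, Fgfr1, Fgfr4, Fgfrl1, Egfr, Erbb2, Erbb3, Fgfr2, Fgfr3 and Pdgfrb. Neighbours in this order were compared by their difference in log2(TPM + 1) within each line, and called separated where the difference had 1 sign in all 3 lines and a mean above its SD. This held for 6 of 9 pairs. Met exceeded Fgfr1 by 0.33 ± 0.23 and Fgfr1 exceeded Fgfr4 by 1.10 ± 0.40 (log2 difference, SD, n = 3). Below these, 4 more pairs were separated, from Erbb2 over Erbb3 (0.81 ± 0.45) down to Fgfr3 over Pdgfrb (0.98 ± 0.12).

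The pairs not separated were those in the middle of the order: Fgfr4 and Fgfrl1 (0.39 ± 0.40), Fgfrl1 and Egfr (0.26 ± 0.68), and Egfr and Erbb2 (0.45 ± 0.82). The order of Fgfr4, Fgfrl1, Egfr and Erbb2 differed between lines, and Egfr took the highest place of these genes in line 66 and the lowest in line 67. With 3 lines the exact sign-flip test (two-sided) cannot go below p = 0.25, and each of the 6 separated pairs had this value (adjusted p = 0.375 over 9 pairs by Benjamini-Hochberg), so no pair could pass 0.05.

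Lines were then compared gene by gene, without a test, since each line had 1 library. Of the 12528 genes whose mean reached 1 TPM, 19.7% differed by more than 1.5-fold between the highest and the lowest line. Of the 9 receptors that passed this level, 5 did so: Egfr at 3.02-fold, Fgfr4 at 1.87-fold, Met at 1.62-fold, Erbb3 at 1.59-fold and Fgfr2 at 1.52-fold. The count fell to 3 without line 66, 2 without line 67 and 1 without line 72, where 9.20%, 11.9% and 11.7% of all genes passed. The median range was 1.52-fold over the 9 receptors and 1.22-fold over all genes tested. Above 2-fold stood 1 receptor, Egfr, against 7.19% of all genes. Pdgfrb, at 1.98-fold, was below the level limit and was not counted.

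By TPM, 9 of the 10 receptors, all but Erbb2, were highest in line 72, among them Pdgfrb, whose mean lies below 1 TPM. Of all genes whose mean reached 1 TPM, 44.4% were highest there too. The count was 7 with CPM (38.3% of all genes), 5 with TMM (29.9%) and 5 with DESeq2 scaling (30.8%). With TMM and DESeq2, Egfr, Fgfr2 and Fgfrl1 were highest in line 66 and Fgfr3 in line 67. Met, Fgfr1, Fgfr4, Erbb3 and Pdgfrb were highest in line 72 under each of these scalings. Met, Fgfr1, Fgfrl1, Egfr and Fgfr2 were lowest in line 67 under each of them, and so was Fgfr3 by TPM and Erbb2 by CPM. Of all genes, 34.8% were lowest in this line by TPM, 32.8% by CPM, 29.5% by TMM and 30.1% by DESeq2.

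Whole chromosomes also differed in level between lines. Each receptor was therefore given as a log2 ratio, its level in a line over its mean in the remaining lines. Beside it stands the median of this ratio over genes of its chromosome whose means reached 10 TPM. The chromosome medians were centred by first subtracting the median over such genes of the autosomes and X in that line. The receptor ratios were not centred. In line 66 this median was 0.33 for chromosome 11 and 0.29 for chromosome 10, and in line 72 it was 0.16 for chromosome 6.

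The log2 ratios of Erbb2 were 0.28, -0.07 and -0.22 in lines 66, 67 and 72, beside medians of 0.33, -0.20 and -0.14 for chromosome 11. After these medians were subtracted, the Erbb2 range was 1.23-fold beside 1.25-fold before, but the order of lines changed, and line 66 went from highest to lowest. Egfr lies on this chromosome too, but in line 67 its log2 ratio was -1.53 beside the median of -0.20, and its range was 2.91-fold after subtraction. Met had a log2 ratio of 0.62 in line 72 beside 0.16 for chromosome 6, and its range went from 1.62-fold to 1.39-fold, below the 1.5-fold limit. Erbb3 went the other way: it was lowest in line 66, where chromosome 10 was high (log2 ratios of -0.42 and 0.29), and its range rose from 1.59-fold to 2.202-fold. A ratio to the remaining lines is larger than a ratio to the mean of all lines, so this subtraction is too large by construction. With medians relative to the mean of all lines, an alternative chosen after seeing the data, the ranges were 1.10-fold for Erbb2, 2.94-fold for Egfr, 1.47-fold for Met and 1.97-fold for Erbb3. Copy number was not measured.

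**Figure D2:**
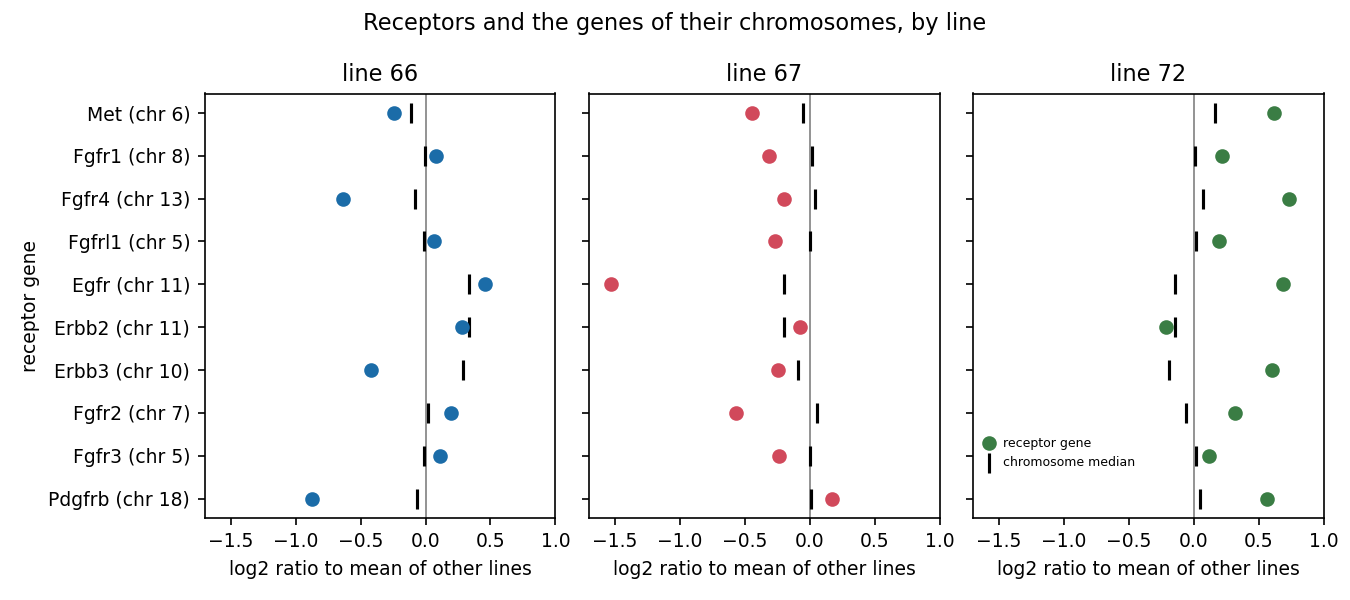
Log2 ratio of the level of each receptor in a line over its mean in the remaining lines (points), in 1 panel per line. Vertical marks give the median ratio of genes on its chromosome, which, unlike the points, was centred on the median over the autosomes and X. Egfr in line 67 lies at -1.53 beside a chromosome median of -0.20, whereas Erbb2 lies at 0.28, -0.07 and -0.22 beside marks at 0.33, -0.20 and -0.14.

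The lower Egfr level of line 67 was seen in each of the main Egfr transcripts. Egfr-201, with the full coding sequence of 3630 bases, measured 15.4, 4.91 and 15.6 TPM in lines 66, 67 and 72. Egfr-202 measured 3.90, 1.84 and 4.73 TPM. This shorter form has 1965 coding bases, and 15 of its 16 coding exons equal the first 15 of 28 in Egfr-201, so it lacks the later exons that encode the kinase. The noncoding Egfr-204, of 716 bases, measured 5.52, 2.39 and 6.57 TPM.

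Genes near Egfr were also looked up, a choice made after its values were seen. Within 1 Mb on either side, 8 other genes had means of 1 TPM or more. All 8 were lowest in line 67, as were 34.8% of all genes of this mean level. Their log2 ratios to the mean of the other lines ran from -0.79 to -0.12 (median -0.27). Eldr, a noncoding gene downstream of Egfr, had the lowest ratio of these, from 7.33, 4.11 and 6.89 TPM in lines 66, 67 and 72. All were nearer to 0 than the -1.53 of Egfr. The chromosome median of -0.20 is not a like value, since it was centred and covers only genes whose means reached 10 TPM.

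For Erbb2, the coding and noncoding parts gave different pictures of the lines. The single coding transcript, Erbb2-201, measured 6.42, 6.46 and 6.68 TPM (6.52 ± 0.14, SD, n = 3), with little spread. The long noncoding form Erbb2-202 measured 8.72 TPM in line 66 but 5.49 and 5.60 in lines 67 and 72, and the higher Erbb2 total of line 66 came from it. Coding transcripts held 41.7%, 49.1% and 54.4% of Erbb2 TPM. Counted by coding transcripts alone, the mean of Erbb2 (6.52 TPM) came below that of Erbb3 (7.42 TPM), whose single listed transcript is coding. This order rested mainly on line 72 (6.68 and 9.59 TPM), since coding Erbb2 and Erbb3 were at 6.42 and 6.05 TPM in line 66 and at 6.46 and 6.61 in line 67. The order of the pair thus depends on which transcripts are summed and on the line. The other receptors stood at 72.6% or more of TPM in coding transcripts on average.

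Transcripts with the IIIc exon formed the larger estimated part of Fgfr1 in each line. Over transcripts that hold only 1 of the pair, IIIc had 66.6%, 68.6% and 67.0% of TPM in lines 66, 67 and 72 (67.4% ± 1.07, SD, n = 3). This share was nearly constant while Fgfr1 itself moved by 1.28-fold. Between 62.1% and 66.7% of Fgfr1 TPM lay in such transcripts. The rest were transcripts without either exon and Fgfr1-208, a nonsense-mediated decay transcript that holds both and was left out of the share.

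The IIIc part of Fgfr1 was spread over several coding transcripts. Fgfr1-202 measured 15.2, 14.8 and 18.9 TPM, Fgfr1-203 8.00, 7.47 and 7.65, and Fgfr1-201 5.05, 3.84 and 4.30. The IIIb part rested on 1 transcript, Fgfr1-213, at 14.2, 12.0 and 15.2 TPM, while the other IIIb transcript, Fgfr1-214, was listed at 0. Fgfr1-213 and Fgfr1-214 are also the only listed coding IIIb transcripts, and both have the 84-base exon and lack the 267-base exon of the first immunoglobulin-like domain. Of the coding IIIc transcripts, 1 joins the 84-base exon with no 267-base exon, Fgfr1-215, but it holds a 306-base exon in that place and was at no more than 0.12 TPM. No other coding IIIc transcript is listed with this combination. Reads that lie in other parts of such a transcript could thus be assigned to Fgfr1-213 without touching the IIIb exon, and the files hold no counts per exon with which to check it. Of 6 markers of epithelial cells, 1 was at or above 1 TPM in every line (beside 47.1% of all detected genes), Krt18, at 4.05, 3.17 and 3.19 TPM, which made up most of their sum of 3.71 to 4.58 TPM. Krt5 was listed at 0, Krt14 had no more than 1 count, and Epcam was at 0.12 to 0.28 TPM. The part of such cells in the IIIb estimate was not tested.

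Transcripts with 1 of the pair held 50.3%, 59.1% and 43.4% of Fgfr2 TPM in lines 66, 67 and 72. Of this part, IIIc had 90.4%, 100% and 93.0% (94.5% ± 4.96, SD, n = 3), from 193, 193 and 191 estimated counts of IIIc and 16.0, 0 and 10.2 of IIIb. The 0 of line 67 leaves room for up to 3 counts. A short coding transcript with neither exon, Fgfr2-217, took 25.7% ± 1.26 (SD, n = 3) of all Fgfr2 TPM.

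The form of Fgfr3 could not be set from these values. Transcripts with 1 of the pair held 48.3%, 58.3% and 57.4% of its TPM, and of this part IIIc had 100% in line 66, 50.7% in line 67 and 55.9% in line 72 (68.9% ± 27.1, SD, n = 3), from 130, 74.4 and 90.3 estimated counts of IIIc and 0, 64.9 and 52.0 of IIIb. The transcripts that carried these counts changed from line to line: Fgfr3-215 with the IIIc exon had 85.0 and 90.3 counts in lines 66 and 72 and 0 in line 67, while Fgfr3-211 with the IIIb exon had 0 in line 66. Without line 66 the mean IIIc share of Fgfr3 was 53.3%.

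**Figure D3:**
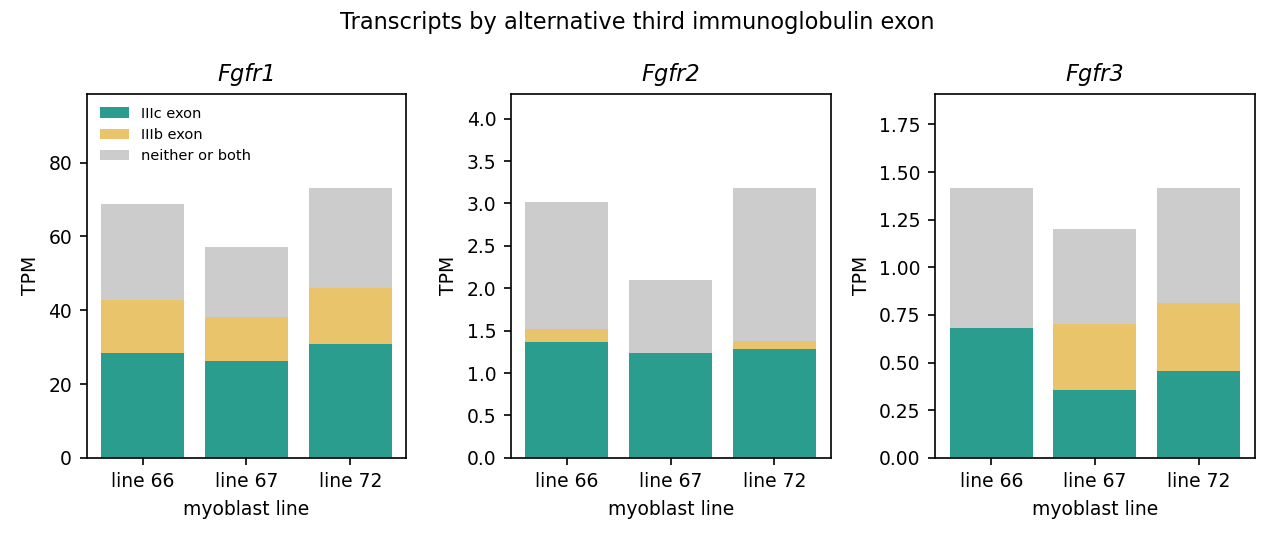
Level in TPM of transcripts with the IIIc exon, the IIIb exon, or neither or both, stacked for each line, for Fgfr1, Fgfr2 and Fgfr3, each on an axis of its own that starts at 0. IIIc holds 66.6% to 68.6% of the exon-bearing Fgfr1 level, at least 90.4% of that of Fgfr2, and 50.7% to 100% of that of Fgfr3.

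Among 58 receptor tyrosine kinases of the mouse, the 9 genes with a kinase described here ranked from the fourth place (Met) downwards. In all, 16 of the 58 were at or above 10 TPM in every line, beside 31.5% of all detected genes, and 4 of the 16 were Met, Fgfr1, Fgfr4 and Erbb2, at ranks 4, 8, 11 and 16 by mean. Egfr had rank 12, but its 9.24 TPM in line 67 kept it out of the 16. The highest kinase was Axl, the receptor of Gas6, at 488, 382 and 367 TPM. The other 11 were Ddr1, Ryk, Epha2, Ddr2, Ptk7, Musk, Epha1, Ephb4, Igf1r, Ephb2 and Ephb6, from 120 TPM for the collagen receptor Ddr1 down to 12.3 for Ephb6 (means). Of the 49 kinases outside the group, 9 had 3 or fewer estimated counts in every line, Epha8 with the lowest mean.

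**Figure D4:**
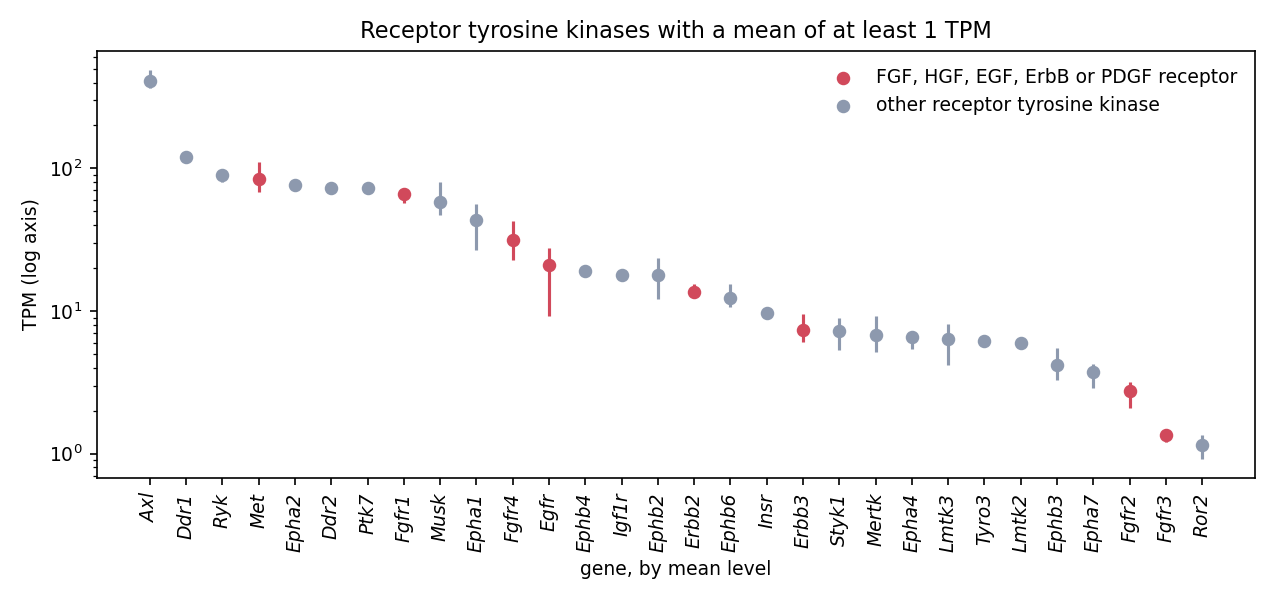
Mean level of each receptor tyrosine kinase gene with at least 1 TPM (points, log axis) with the lowest and highest line (vertical lines), in order of the mean. Met, Fgfr1, Fgfr4, Egfr, Erbb2, Erbb3, Fgfr2 and Fgfr3 are marked in red; Pdgfrb, with a mean of 0.189 TPM, lies below the limit.

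FGF ligand genes were low in these lines. Of 18 ligand genes, 1 was at or above 1 TPM in every line, none reached 10, and 5 had 3 or fewer counts in every line, with Fgf20 listed at 0. Of all detected genes, 47.1% reached 1 TPM in every line. The one was Fgf21, a metabolic hormone that needs beta-Klotho (Klb) as co-receptor, at 2.14, 5.24 and 6.76 TPM, with line 66 lowest. Fgf9, named after its values were seen, was next by mean, at 0.52, 1.53 and 4.08 TPM, with line 72 highest. Klb itself was at 0.01 TPM in each line, the lowest of its list. Fgf2, a mitogen of myoblasts, was at 0.99, 0.40 and 0.18 TPM, from 90, 91 and 43 estimated counts, with nearly equal counts in lines 66 and 67.

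Genes of heparan sulfate, the partner of the FGF receptors on the cell surface, had higher levels. FGFs and HGF bind these sulfated sugar chains, which hold the ligand at the receptor. Of 12 co-receptor and core protein genes, 8 were at or above 1 TPM in every line. At or above 10 were 7: Sdc4, Sdc3, Gpc1, Sdc2, Sdc1, Gpc4 and Gpc2, from 209 ± 41.9 TPM for Sdc4 to 16.6 ± 2.09 for Gpc2 (mean ± SD, n = 3). Sdc4 is also one of the myoblast markers. All 9 enzyme genes that build or trim the chains were at or above 10 TPM in every line (Sulf2, Ext1, Hs2st1, Hs6st1, Hs6st2, Ext2, Ndst1, Sulf1 and Ndst2). The highest, Sulf2, which removes sulfate groups, was at 114, 118 and 116 TPM, and the lowest was Ndst2, at 13.0 ± 0.945 TPM (SD, n = 3).

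Hgf, the ligand of Met, was at 2.17, 3.63 and 0.77 TPM in lines 66, 67 and 72. Its order was the reverse of that of Met, with line 67 highest for Hgf and lowest for Met, and line 72 lowest for Hgf and highest for Met. Of the 7 genes for HGF and its activation, 4 were at or above 1 TPM in every line. Plau, a protease that can cleave the HGF precursor, was the only one at or above 10, at 138, 115 and 119 TPM, and Hpn was the lowest, at 0.61, 0.58 and 0.41 TPM.

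Ligands of Egfr were present beside it. Of 11 EGF family genes, 6 were at or above 1 TPM in every line and 2 at or above 10. Hbegf was at 25.2, 14.9 and 28.2 TPM, lowest in line 67 as Egfr was, while Areg was level at 14.2, 13.2 and 14.2 TPM. The neuregulin gene Nrg1, a ligand of Erbb3, was at 2.19, 2.91 and 5.04 TPM, Nrg2 at 0.80, 0.46 and 0.66, and Nrg3 was the lowest of the list at no more than 0.04 TPM. Both sheddases, which release these ligands from the cell surface, were at or above 10 TPM, with Adam10 at 52.8, 68.5 and 63.6 and Adam17 at 41.0, 44.6 and 43.1.

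PDGF ligand genes lay above their receptor. Pdgfa was at 50.7, 52.2 and 63.0 TPM, Pdgfc at 17.4, 22.3 and 31.7, and Pdgfd at 20.0, 14.1 and 15.3. Pdgfb was the lowest of the 4, at 1.11, 1.97 and 1.26 TPM. Each of the 4 ligand genes thus had a higher level than Pdgfrb and Pdgfra in every line.

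**Figure D5:**
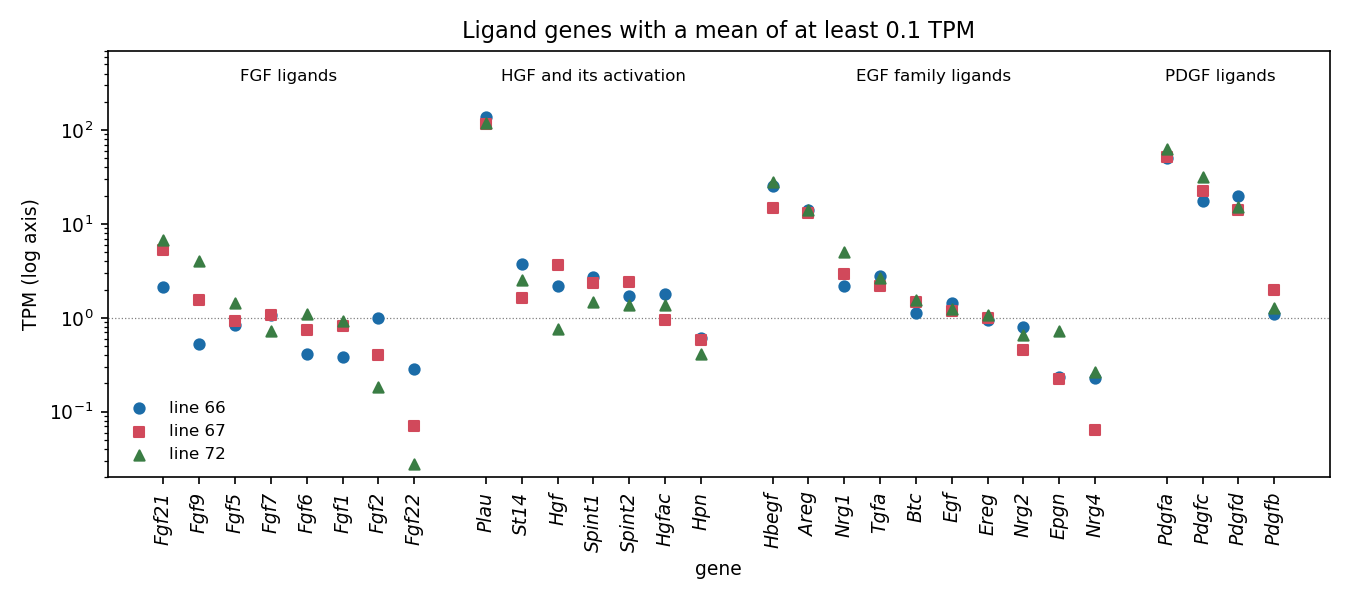
Level in TPM (log axis) of ligand genes whose mean reached 0.1 TPM, with 1 point per line, grouped by family, and a dotted line at 1 TPM; points at 0 are left out. Of the FGF ligands, Fgf21 alone lies above 1 TPM in every line, whereas Hbegf, Areg, Pdgfa, Pdgfc and Pdgfd lie above 10 TPM.

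The first signalling steps inside the cell were measured throughout. All 12 adaptor and enzyme genes were at or above 1 TPM in every line and 9 at or above 10 (Grb2, Ptpn11, Shc1, Plcg1, Pik3ca, Sos1, Frs2, Sos2 and Pik3r1). Grb2, which joins receptors to Sos, was highest at 144, 116 and 118 TPM. Frs2, the docking protein of the FGF receptors, was at 18.3 ± 2.39 TPM (SD, n = 3), and its relative Frs3 was the lowest, at 2.83 ± 0.698. Of the 12, Gab1 and Frs3 varied over 1.5-fold between lines (both 1.66-fold), beside 19.7% of all genes.

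All 10 genes of receptor turnover were at or above 1 TPM in every line, and 8 at or above 10 (Errfi1, Stam, Hgs, Sh3kbp1, Rnf41, Lrig1, Cbl and Lrig2). Errfi1, an inhibitor of EGF receptor kinases that is induced by their signal, was at 343, 255 and 185 TPM. It was lowest in line 72, whereas Egfr was lowest in line 67. The part of Egfr signal in the Errfi1 level was not tested. Cbl, the ubiquitin ligase of Egfr and Met, was at 17.2 ± 1.97 TPM (SD, n = 3), and Lrig3 was the lowest of the list at 5.87 ± 0.290. Lrig1, which promotes breakdown of ErbB receptors, was at 20.1, 14.6 and 20.0 TPM.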

How the data were processed

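RNA was sequenced from poly-A-enriched, stranded libraries of myoblast lines 66, 67 and 72. Per the submitters' processing notes, bcl2fastq 2.20, fastp 0.20, kallisto 0.46.1 and the build GRCm39 were used. The transcript set is not given in the sources used here. The authors deposited an estimated count for each transcript, with no further normalization, and TPM values, the estimated count per effective length scaled to 1e+06 per library. Reads that fit several transcripts are split by estimate, for which the files hold no error.

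Identifiers were matched to GENCODE release M21 (GRCm38), whose coordinates are given. Of 121798 transcripts, 1112 had no match (0.493% to 0.535% of counts) and were left out. TPM and estimated counts were summed per gene, and a gene with TPM above 0 in any line was called detected (25510 genes). Levels were compared on the scale log2(TPM + 1) by an exact sign-flip test over lines, and folds as highest over lowest line. A count of 0 was taken to allow 3 counts (0.0409 to 0.0448 CPM), which covers counting error only.

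The 10 receptors, the lists of related genes and the cell markers were chosen with earlier results of these data known. All receptors are named, and of each list the genes at or above 10 TPM in every line, the highest and the lowest. Genes of like pattern were not sought, since 3 libraries are too few. Alternatives were another pseudocount, CPM, TMM (edgeR 4.0.16) and DESeq2 1.42.0 scaling of counts rounded to whole numbers, coding transcripts only, other limits, chromosome medians and leaving out each line. The sequences of the alternative receptor exons are not reported here. Fold calls at a limit of 2-fold, chromosome medians relative to the mean of all lines, and the sign-flip test were run on simulated counts. These had counting error only. The other steps were not simulated. Analysis ran in R 4.3.3 and Python 3.11.15, with scipy 1.17.1, pandas 2.3.3, numpy 2.4.6 and matplotlib 3.10.9.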

Additional observations from a re-analysis of the deposited data

How the results depend on the processing

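The median receptor level, 4.09 on the log2(TPM + 1) scale, moved to 5.41 with CPM, 5.42 with TMM, 5.42 with DESeq2 scaling, which leave out the correction for length, and to 3.48 with coding transcripts only. Leaving out 1 line gave 3.94 to 4.27. Of the 5 receptors over 1.5-fold, 1 passed a fold of 2 and 3 had a mean of at least 10 TPM, where 9.79% of all genes passed 1.5-fold. Leaving out 1 line gave 1 to 3, by construction, since fewer lines span a smaller range. Without Fgfr2, 4 passed with TMM, DESeq2 scaling or coding transcripts only (17.9% of all genes in each) or a pseudocount of 1 TPM (14.2%), and without Met, 4 passed after subtraction of chromosome medians relative to the other lines (18.7%) or to all lines (18.2%). The Fgfr1 IIIc share was 75.4% by estimated counts, since longer transcripts gain weight. Separated pairs numbered 6 to 8 when 1 line was left out, where 1 sign in all lines is easier to meet by construction. Of 134 related genes in 10 lists, 77 were at or above 1 TPM in every line, where 47.1% of all detected genes were, 53 at or above 10, where 31.5% of all detected genes were, and 78 to 79 at or above 1 TPM when 1 line was left out. No paired comparison between conditions was possible because there is only 1 condition. With 1 library per line and n = 3, differences between lines have no replicate check, and reads that fit several transcripts limit every statement about transcript forms.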
